A study of Mus musculus with 6 samples.

Results

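Megakaryocyte progenitors were taken from single-cell RNA sequencing of sorted mouse bone marrow as the barcodes with at least 3 unique molecular identifiers (UMIs) of Pf4, at least 2 UMIs of Itga2b, Gp9, Gp5 and Cavin2 together, no more than 2 UMIs of Car1, no more than 2 of Prtn3 and Ctsg together and no more than 4 of Ppbp. Car1 marks erythroid cells, Prtn3 and Ctsg mark granulocyte-monocyte precursors and Ppbp marks platelets, so that barcodes of those kinds were kept out. The rule was met by 982 of the 44399 barcodes that had at least 500 genes, at least 1000 UMIs and no more than 10% of UMIs from mitochondrially encoded genes. The study compared 3 wild-type (WT) samples with 3 samples of the genotype Txnip-KO, in which the gene for thioredoxin-interacting protein is knocked out. WT samples 1 to 3 held 177, 196 and 153 of these progenitors, and Txnip-KO samples 1 to 3 held 148, 211 and 97. The labels give no age, sex, strain or treatment, do not name the sorted population, do not say which part of Txnip was removed or in which cells, and do not say that samples came from separate animals. P-values therefore measure the spread between these samples only.

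Megakaryocyte progenitors descend from blood stem cells, in part through a branch shared with the erythroid lineage, and mature into megakaryocytes, which copy their DNA without dividing and release platelets. On the way they put the platelet integrin and the von Willebrand factor receptor on their surface, pack alpha granules with clotting and growth factors and dense granules with serotonin and nucleotides. Txnip binds thioredoxin, restrains glucose uptake and is itself a target of the glucose-sensing factor MondoA (Mlxip).

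The 6 libraries held 61368478 to 80876483 UMIs each and the progenitors 1208881 to 3480656 per sample, the fewest in Txnip-KO replicate 3. Of the 982 progenitors, 44 were marked as likely doublets, 16 carried a barcode sequence that another library also used, and 24 also met a rule for lymphoid cells. Replicates of a group differed from each other by more than sampling noise, with a chi-square per degree of freedom of 1.78 to 4.54 over their progenitor counts.

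The expression of genes outside the rule matched the label. The values that follow are CPM, a gene's share of the summed UMIs of a sample's cells scaled to a common total of 1000000, and since a 3′ tag is counted once per molecule they do not depend on transcript length. Vwf, the carrier of factor VIII stored in alpha granules, had a median of 62.6 CPM (range 32.5 to 78.1 over 6 samples) in the progenitors and 2.53 (1.35 to 4.90) in all other kept barcodes. Treml1, an alpha granule receptor, was at 74.5 CPM against 4.02, and Gp1bb, a chain of the von Willebrand factor receptor, at 38.6 against 1.82. F2rl2, the thrombin receptor PAR3, was found at 56.0 CPM against 3.80. The tetraspanin Cd9 reached 572 CPM against 97.9. These contrasts describe the set and were not tested, because the cells were chosen by their transcripts. The rule genes themselves ran from Pf4 (platelet factor 4) at 2563 to 4345 CPM per sample to Gp5, another chain of that receptor, at 76.9 to 114.

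Marker lists of related cell types were not all low in the progenitors. The 8 platelet markers, Ppbp of the rule among them, summed to 702 to 1233 CPM per sample against 171 to 293 in the other kept barcodes, mostly through Nrgn, which encodes neurogranin (median 791 CPM). Tubb1, the platelet beta-tubulin, had a median of 0.145 CPM, and Gp6 (the collagen receptor) 0.144. Stem cell markers summed to 351 to 543 CPM against 225 to 484, and erythroid markers to 774 to 969 against 829 to 1372, with the carbonic anhydrase gene Car2 at a median of 530. Both sets used for comparison below were chosen by their own markers, so that those genes differ by construction. Compared with barcodes holding at least 2 UMIs of the stem cell factor Hlf and without the other lineages' genes (1798 cells, called Hlf-positive stem cells here), the progenitors had 0.321 CPM of Procr against 26.6, and 43.8 CPM of Hlf against 506. The comparison with 3064 erythroid progenitors, chosen by at least 3 UMIs of Car1 and at least 2 of Klf1, Epor and Ermap together, gave 13.1 CPM of the erythroid factor Klf1 against 178 and a median of 0 CPM of the blood group protein gene Ermap against 104, both used to choose that set. Gata1, which both lineages use, was at 67.2 against 107 CPM.

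Free RNA was read in 8356 lymphoid cells, chosen by Nkg7 and by Klrd1, Klrb1c, Ncr1 or Cd3e. With each cell thinned to 2000 UMIs, Pf4 was seen in 82.6% of the progenitors and 0.971% of the lymphoid cells, and Vwf in 8.46% and 0.112%. Before thinning the median was 15376 UMIs per progenitor and 4264 per lymphoid cell, and Pf4 was seen in 100% and 2.41% of cells. Pf4 was used to choose the progenitors, so its detection in them follows from the rule. The lymphoid cells still held the 24 progenitors that met both rules, so the Pf4 seen there was not all free RNA. The cytotoxic granule gene Nkg7 was an exception to the low levels of lymphoid genes: 45.9% of thinned progenitors had a UMI of it, as did 35.0% of erythroid progenitors, 20.5% of Hlf-positive stem cells and 94.7% of the lymphoid cells. Klrd1, a receptor chain of natural killer cells, was seen in 1.02% of thinned progenitors and 85.4% of lymphoid cells.

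**Figure D1:**
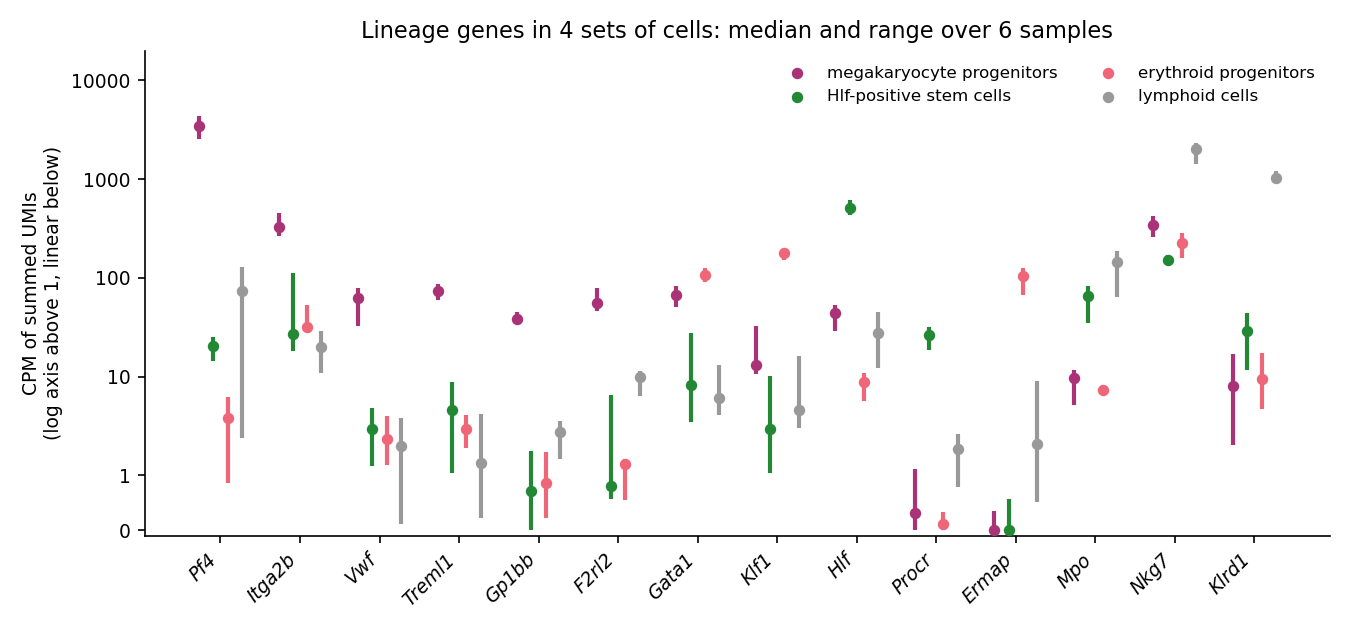
Levels of 14 lineage genes, as CPM of summed UMIs on an axis that is logarithmic above 1 and linear below, in megakaryocyte progenitors, Hlf-positive stem cells, erythroid progenitors and lymphoid cells. Points are medians and lines the range over 6 samples; Pf4 and Itga2b were used to choose the progenitors, which had 62.6 CPM of Vwf but 0.321 CPM of Procr and 0 CPM of Ermap.

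The set had no sharp border. The 87 progenitors with exactly 3 UMIs of Pf4 had 152 CPM of the 6 megakaryocyte genes Vwf, Treml1, Gp1bb, F2rl2, Rab27b and Itgb3 together, against 118 CPM in the 139 barcodes just outside with 2 UMIs of Pf4, and all 982 had 403 CPM. The limit on Ppbp left out 81 barcodes, 26 from WT and 55 from Txnip-KO samples. They had 3301 CPM of these genes and a median of only 5856 UMIs. The limit on Prtn3 and Ctsg left out 367 barcodes, 121 from WT and 246 from Txnip-KO samples, which had 326 CPM.

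Members with and without a UMI of Vwf differed in other genes. With each cell thinned to 5000 UMIs (973 progenitors, 9 shallower ones left out), 182 had a UMI of Vwf and 791 had none. Progenitors with Vwf had a median of 85.0 CPM of the fibrinogen receptor chain Itgb3 against 30.4 without, 121 against 35.8 CPM of F2rl2 and 5864 against 2589 CPM of Pf4, each higher in 6 of 6 samples. They had less of the intermediate filament gene Vim (52.0 against 142 CPM), of Plac8 (113 against 269) and of the progenitor transcription factors Sox4 (53.1 against 120) and Myb (173 against 262), in 6 of 6 samples. Apoe, which encodes apolipoprotein E, was also lower with Vwf (549 against 1055 CPM). Gata1 was at 71.6 and 73.5 CPM and was higher with Vwf in 3 of 6 samples. These splits are descriptions with no test. Between progenitors called in S or G2M phase and the 254 called G1, Gp5 was at 90.5 and 89.5 CPM and Treml1 at 75.4 and 78.2, while Pf4 was higher in cycling cells in 6 of 6 samples (3319 against 2174 CPM) and Itga2b, the fibrinogen receptor's alpha chain, lower in 6 of 6 (317 against 348).

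The share of megakaryocyte progenitors under this rule did not differ between the genotypes beyond the spread between samples. It was 2.69%, 2.61% and 2.10% of kept barcodes in WT and 2.32%, 2.50% and 1.18% in Txnip-KO, or 2.47% ± 0.319 against 2.0% ± 0.717 (SD, n = 3; exact permutation test, two-sided, p = 0.500, Benjamini-Hochberg adjusted 0.500 over 3 such measures). The 95% Wilson interval of the lowest sample, Txnip-KO replicate 3, was 0.967 to 1.43%, and without that sample the difference was -0.0596 percentage points. The rule's upper limits left out more Txnip-KO than WT barcodes, 246 against 121 for Prtn3 and Ctsg and 55 against 26 for Ppbp. The genotype difference in share without these limits was not tested. The counted share also depended on depth. With every barcode first thinned to 3000 UMIs, the rule found 1.28%, 1.55% and 1.06% in WT and 1.83%, 1.99% and 1.20% in Txnip-KO, so that the direction turned (exact permutation p = 0.300).

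Txnip-KO progenitors held fewer UMIs and fewer of them were called as cycling, with no overlap between the groups in either measure. Median UMIs per progenitor were 18263, 16015 and 17641 in WT and 15056, 13634 and 10820 in Txnip-KO. The share called S or G2M was 91.0%, 82.1% and 76.5% in WT and 53.4%, 68.2% and 62.9% in Txnip-KO. The difference fell on S phase, which took 56.3% ± 1.33 of WT and 34.4% ± 2.26 of Txnip-KO progenitors, while G2M took 26.9% ± 7.76 and 27.1% ± 6.0 (SD, n = 3). For both UMIs and cycling share the exact permutation test gave p = 0.10, the smallest value that 3 samples against 3 allow, and 0.150 after adjustment. All kept barcodes were likewise shallower in Txnip-KO, at 7925 ± 644 against 9385 ± 149 UMIs (SD, n = 3), and progenitors had 3.61% against 3.12% mitochondrial UMIs. Whether depth or RNA quality has a part in the phase calls was not tested beyond thinning each cell to 2000 UMIs for them. The cycling share was 76.1% and 56.2% with each cell thinned to 1000 UMIs, and 84.2% and 59.2% with none.

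**Figure D2:**
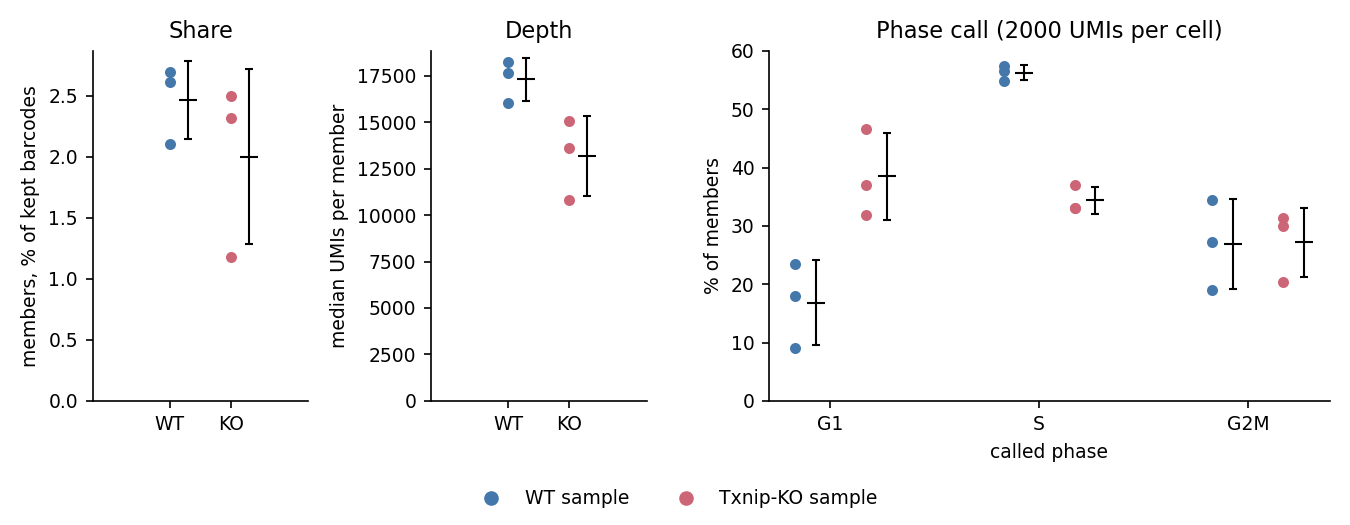
Left, megakaryocyte progenitors as a percentage of kept barcodes; middle, median UMIs per progenitor; right, percentage of progenitors called G1, S or G2M after thinning to 2000 UMIs. Points are samples, and bars are the mean and SD of 3; the S-phase shares do not overlap (56.3% in WT, 34.4% in Txnip-KO) and the G2M shares do.

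Txnip was nearly gone from Txnip-KO progenitors. It gave 718, 546 and 546 UMIs in the WT samples and 11, 10 and 0 in the Txnip-KO samples, and 3 UMIs would have been 2.48 CPM in the sample with none. In these progenitors the labels and the targeted gene went together, although the label does not say whether the counted 3′ end lies in the removed part. Scaled by trimmed mean of M-values (TMM), as all levels between the genotypes below are, Txnip was measured at 187 ± 27.0 CPM in WT and 2.48 ± 2.19 in Txnip-KO. The gene lies at chr3:96557957-96561883 on the plus strand (GRCm38). Its nearest tested neighbour, Polr3gl (chr3:96577872-96594181, minus strand, 16.0 kb away), encodes a subunit of RNA polymerase III and was among the largest rises: 33.9, 28.5 and 34.6 CPM in WT and 135, 132 and 80.7 in Txnip-KO (log2 1.90, SE 0.15, edgeR adjusted p = 1.41e-07). Whether the altered locus itself has a part in this change was not tested.

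Over all genes, edgeR's quasi-likelihood test on UMIs summed per sample called 958 of 9914 tested genes higher in Txnip-KO progenitors (9.66%) and 1036 lower (10.4%) at a Benjamini-Hochberg adjusted p under 0.05, or 20.1% in all. The median log2 fold change of all tested genes was 0.02. Counted without a test, every Txnip-KO sample was above every WT sample in 1837 genes (18.5%) and below in 1854 (18.7%). The 1994 calls became 927 without WT replicate 2, 1115 without Txnip-KO replicate 1, 1225 without WT replicate 1 and 1269 without WT replicate 3. Log2 fold changes below are Txnip-KO over WT with the standard error after ±, and adjusted p-values are from this test over all 9914 genes. Because the progenitors were picked by UMIs of their own markers, the genes of the rule are given as levels only. The gene lists below were chosen with earlier results of these data known, so their rates of calls are descriptions and not independent tests.

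Several surface receptors of megakaryocytes and platelets were higher in Txnip-KO. Of 21 tested without the rule genes, 7 were called higher (33.3%, against 9.66% of all genes) and 0 lower, with a list median of 0.20. Itgb3, the beta chain that pairs with Itga2b, was at 20.2, 27.9 and 22.1 CPM in WT and 100, 45.5 and 61.8 in Txnip-KO (1.57 ± 0.22, adjusted p = 1.06e-04). Every Txnip-KO sample was above every WT sample, as in 18.5% of all genes. Itga2b was found at 265, 295 and 269 CPM in WT and 430, 365 and 399 in Txnip-KO. Clec1b, the receptor CLEC-2 for podoplanin, rose from 9.06, 10.7 and 4.63 to 37.1, 21.3 and 24.0 CPM (1.74 ± 0.26, adjusted p = 1.68e-04). The junction protein gene Esam rose from 17.2, 15.3 and 15.7 to 38.6, 38.9 and 50.7 CPM (1.36 ± 0.16, adjusted p = 1.61e-05). Itga6, the laminin receptor's alpha chain, rose by 0.79 ± 0.12 on the log2 scale (adjusted p = 2.12e-04). In Hlf-positive stem cells, 5 of 19 tested receptors, rule genes counted, were called higher and 0 lower, with a list median of 0.54. Over all genes, 784 of 10735 were called higher there. Among progenitors called G1, Esam did not pass (0.72, adjusted p = 0.118). The rule counts raw UMIs and Txnip-KO progenitors were shallower, so it may pick the genotypes at unlike relative marker levels. With the rule applied after thinning to 3000 UMIs, 8 of 23 receptors, rule genes counted, were called higher and 1 lower. The 13 tested megakaryocyte markers, rule genes counted, went from 6 higher and 0 lower to 5 and 3 (list medians 0.25 and 0.07). Over all genes, 939 of 8995 were then called higher.

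Chains of the von Willebrand factor receptor and a thrombin receptor did not pass. Gp1ba, the ligand-binding chain, had a log2 fold change of 0.49 ± 0.30 and Gp1bb one of -0.10 ± 0.14 (adjusted p = 0.270 and 0.662), and the thrombin receptor F2rl2 one of 0.20 ± 0.16 (adjusted p = 0.393). Treml1 was at 75.7, 87.9 and 81.6 CPM in WT and 57.5, 70.7 and 76.4 in Txnip-KO, where the groups overlapped (adjusted p = 0.104). The rule genes Gp9 and Cavin2 had 99.9 ± 3.93 and 212 ± 40.2 CPM in WT and 98.8 ± 10.5 and 255 ± 33.9 in Txnip-KO (SD, n = 3). Pf4 had 3728 ± 545 and 3421 ± 914 CPM. Gp5, also a rule gene, was at 114, 94.8 and 107 CPM in WT and 91.5, 89.0 and 79.9 in Txnip-KO. Every Txnip-KO sample was below every WT sample, as in 18.7% of all genes.

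The same difference was seen per cell at equal depth. With progenitors thinned to 5000 UMIs, Itgb3 was detected in 8.62%, 13.3% and 11.9% of WT and 36.1%, 19.4% and 25.3% of Txnip-KO progenitors. Esam was detected in 7.64% ± 1.99 and 21.3% ± 4.48 (SD, n = 3). Treml1 was detected in 30.2% ± 4.15 and 29.0% ± 4.14, and Gata1 in 30.0% ± 2.62 and 30.9% ± 3.46.

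The promoters of 2 surface receptors are printed because they hold a GATA motif, the letters bound by Gata1 and Gata2, and because one belongs to a gene that rose (Clec1b) and the other to a rule gene whose levels overlapped (Gp9). GATAAG was searched on both strands in the 250 bases before the start site in the RefSeq promoter table (GRCm38.p6), and 6.55% of its 32851 promoters hold it. Of the 15 megakaryocyte markers, 11 were in the table and 3 held the motif (Clec1b, Gp6 and Gp9). Capitals mark the motif, at position -188 from the start of Clec1b (chr6:129397047-129397296, plus strand) and -43 from that of Gp9 (chr6:87777820-87778069, plus strand), read 5′ to 3′.
Clec1b: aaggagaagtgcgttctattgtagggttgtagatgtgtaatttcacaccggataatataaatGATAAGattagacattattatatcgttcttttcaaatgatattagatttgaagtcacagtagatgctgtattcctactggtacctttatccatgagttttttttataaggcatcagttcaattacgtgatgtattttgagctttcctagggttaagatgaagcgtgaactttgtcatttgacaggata
Gp9: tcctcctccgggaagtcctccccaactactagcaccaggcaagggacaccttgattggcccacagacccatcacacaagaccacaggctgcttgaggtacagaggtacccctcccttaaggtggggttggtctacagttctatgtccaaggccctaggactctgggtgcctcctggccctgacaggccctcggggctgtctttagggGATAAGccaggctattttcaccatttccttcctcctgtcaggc

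Dense granule genes were called at about the rate of all genes, 2 of 17 higher (11.8%, against 9.66%) and 0 lower. Slc35d3, a transporter needed to form dense granules, rose: 23.4, 27.9 and 27.8 CPM in WT and 91.2, 71.7 and 71.3 in Txnip-KO (1.58 ± 0.14, adjusted p = 4.96e-07). It was detected in 10.2% ± 2.22 of WT and 26.2% ± 2.69 of Txnip-KO progenitors at 5000 UMIs (SD, n = 3). Slc18a2, which loads serotonin into dense granules, was found at 42.4, 42.6 and 40.3 CPM in WT and 73.0, 56.9 and 83.3 in Txnip-KO (0.72 ± 0.14, adjusted p = 0.00127). Slc18a2 did not pass among progenitors called G1 (0.56, adjusted p = 0.135) or with members thinned to 2000 UMIs (0.75, adjusted p = 0.0885).

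Of 19 genes for alpha granule contents and biogenesis that are not in the rule, 7 were called higher and 1 lower. That is 36.8% higher against 9.66% of all genes, and 5.26% lower against 10.4%, with a list median of 0.29. Timp3, an inhibitor of matrix proteases, was measured at 18.7, 26.5 and 18.5 CPM in WT and 86.6, 42.5 and 48.1 in Txnip-KO (1.49 ± 0.22, adjusted p = 1.65e-04). Vwf was at 40.0, 57.9 and 32.8 CPM in WT and 74.5, 68.7 and 75.6 in Txnip-KO (0.72 ± 0.16, adjusted p = 0.00346). Mmrn1, which binds factor V, rose by 0.68 ± 0.14 and the adhesion receptor Selp by 0.92 ± 0.25 on the log2 scale (adjusted p = 0.00270 and 0.0128). Thbs1, which encodes thrombospondin, went the other way, from 5.35 ± 0.978 CPM in WT to 1.89 ± 0.686 in Txnip-KO (adjusted p = 0.0200). With 1 sample left out in turn, the count of higher genes was 4 without WT replicate 1 or Txnip-KO replicate 1. It was 2 with the same number of members drawn from every sample. With the rule applied after thinning to 3000 UMIs it was 5, with 2 lower, among 21 tested with the rule genes counted. With equal numbers Vwf did not pass (0.47, adjusted p = 0.0834), nor did it with members thinned to 2000 UMIs (0.93, adjusted p = 0.0506). Selp did not pass without WT replicate 1, Txnip-KO replicate 1 or Txnip-KO replicate 2 (adjusted p = 0.0707, 0.0623 and 0.0604), nor did Thbs1 without WT replicate 2 or Txnip-KO replicate 2 (adjusted p = 0.102 and 0.105).

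Of 27 platelet signalling genes, 15 were called higher (55.6%, against 9.66% of all genes) and 0 lower, with a list median of 0.40. Gnaq, the G protein of the thrombin and thromboxane receptors, was found at 35.1, 41.2 and 41.7 CPM in WT and 67.0, 68.1 and 62.7 in Txnip-KO (0.76 ± 0.12, adjusted p = 4.08e-04). The kinase Syk, which acts below CLEC-2, rose by 0.50 ± 0.11, the thromboxane synthase Tbxas1 by 0.53 ± 0.12 and the regulator Rgs10 by 0.47 ± 0.11 on the log2 scale (adjusted p = 0.00359, 0.00401 and 0.00461). The phosphatase Inpp5d rose by 0.61 ± 0.14 (adjusted p = 0.00490). The count was 9, with 2 lower, without Txnip-KO replicate 2, 8 without WT replicate 2 and 7 without WT replicate 3. Among progenitors called G1 it was 4 higher and 0 lower, and with the rule applied after thinning to 3000 UMIs it was 9 higher and 3 lower. Rgs10 was at 0.07 under that rule (adjusted p = 0.662) and at 0.31 in G1-called progenitors (adjusted p = 0.230), and Tbxas1 did not pass in the latter (0.59, adjusted p = 0.0906).

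Among transcription factors of the lineage, 10 of 29 were called higher (34.5%, against 9.66% of all genes) and 0 lower, with a list median of 0.33. Runx1 was measured at 131, 137 and 146 CPM in WT and 219, 200 and 166 in Txnip-KO (0.52 ± 0.11, adjusted p = 0.00253). The homeobox factor Meis1 rose from 231 ± 13.6 to 304 ± 22.3 CPM (0.40 ± 0.10, adjusted p = 0.00944). Stat5a, which cytokine receptors activate, rose by 0.57 ± 0.13 and the adaptor Lmo2 by 0.38 ± 0.10 on the log2 scale (adjusted p = 0.00474 and 0.00948). Gata1 was at 66.9 ± 5.88 CPM in WT and 66.6 ± 18.5 in Txnip-KO (adjusted p = 0.816). The count of factors called higher was 6 without Txnip-KO replicate 1, 4 without WT replicate 2, 5 without WT replicate 3 and 5 with DESeq2. Stat5a did not pass in G1-called progenitors (0.40, adjusted p = 0.300). Meis1 did not pass without WT replicate 2 (adjusted p = 0.0853), nor did Lmo2 without WT replicate 2 or WT replicate 3 (adjusted p = 0.0512 and 0.0829). The rises of this list cannot be called particular to the progenitors. In Hlf-positive stem cells 12 of the 29 factors were called higher and 0 lower, against 784 and 832 of 10735 genes. In erythroid progenitors 11 of 29 were called higher and 3 lower, against 1503 and 1676 of 10906 genes.

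**Figure D3:**
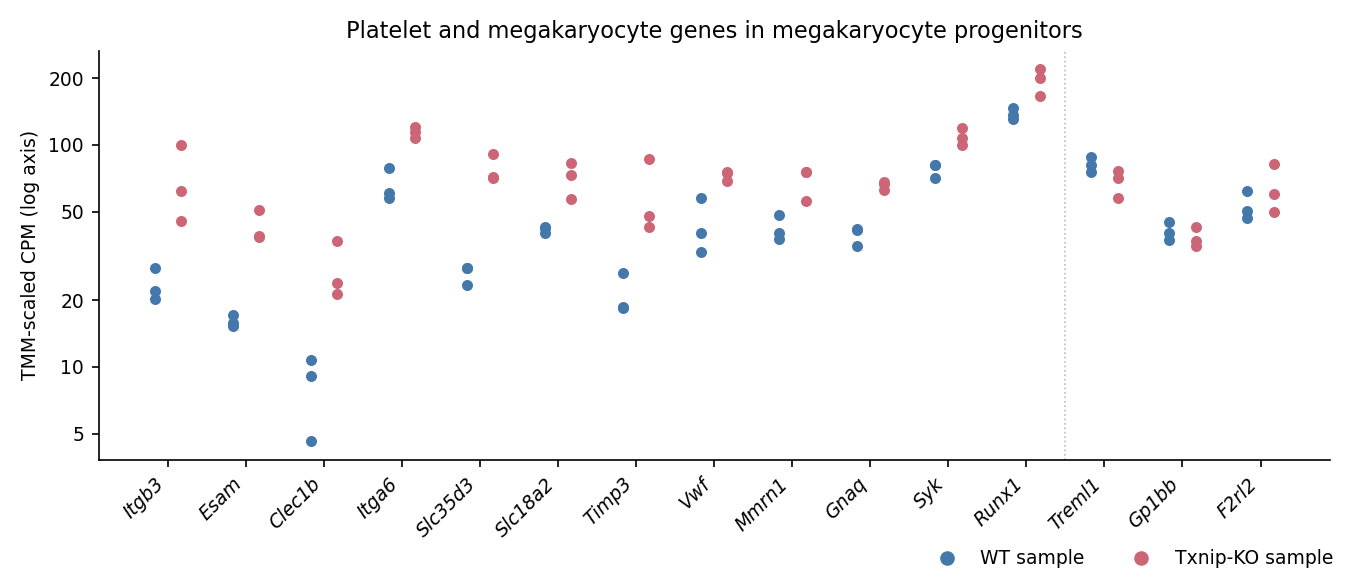
TMM-scaled CPM (logarithmic axis) of 15 platelet and megakaryocyte genes in the progenitors, each point 1 sample. The 12 genes left of the dotted line were picked among genes called higher. In each of them every Txnip-KO sample is above every WT sample, as in 18.5% of all genes. Treml1, Gp1bb and F2rl2 on the right did not pass and overlap. Genes called lower, such as Thbs1 and Pfn1, are not shown.

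Genes of the platelet-forming cytoskeleton showed few calls, 1 of 23 higher and 2 lower without the rule gene Cavin2. That is 4.35% higher against 9.66% of all genes, and 8.70% lower against 10.4%. Pfn1, which encodes the actin-binding profilin, fell from 1818 ± 84.8 to 1152 ± 215 CPM (-0.66 ± 0.11, adjusted p = 4.10e-04), and the alpha-tubulin Tuba4a from 273 ± 13.1 to 204 ± 33.4 (-0.43 ± 0.11, adjusted p = 0.0131; 0.0620 without WT replicate 1). The tropomyosin Tpm4 rose from 33.1 ± 4.62 to 56.1 ± 10.9 CPM (0.71 ± 0.15, adjusted p = 0.00278), but its change was 0.03 (adjusted p = 0.938) with the rule applied after thinning to 3000 UMIs. The platelet tubulin Tubb1 was near 0, as given above.

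DNA synthesis genes were lower in Txnip-KO progenitors. Of 43 S-phase genes, 30 were called lower (69.8%, against 10.4% of all genes) and 0 higher, with a list median of -0.62. These genes also made the phase calls, so that list and phase shares are not independent. Tyms, the thymidylate synthase, fell from 142, 127 and 110 CPM to 46.1, 74.9 and 60.1 (-1.06 ± 0.14, adjusted p = 7.82e-05). Pcna, the clamp of DNA polymerase, fell from 272 ± 11.5 to 158 ± 26.2 CPM and the helicase subunit Mcm4 from 131 ± 7.71 to 78.3 ± 5.26 (adjusted p = 1.69e-04 and 1.14e-04). Chek1, the replication checkpoint kinase, and Mthfd1, which supplies folate units for nucleotide synthesis, were among the largest falls (-1.26 ± 0.18 and -1.10 ± 0.15).

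Genes of mitosis had fewer calls. Of 53 tested, 14 were called lower (26.4%, against 10.4% of all genes) and 1 higher (1.89%, against 9.66%). The list median was -0.29, and the count of lower genes was 6 without Txnip-KO replicate 1 and 3 without WT replicate 1. Cdk1 fell from 138 ± 18.1 to 85.3 ± 11.6 CPM (-0.72 ± 0.12, adjusted p = 5.22e-04), whereas Mki67 was at 304 ± 67.6 and 275 ± 42.9 (adjusted p = 0.461). Of 21 genes for the endomitotic cycle and its missing cytokinesis, 7 were called lower and 1 (Ccnd1) higher. That is 33.3% lower against 10.4% of all genes, and 4.76% higher against 9.66%. The count of lower genes was 4 without WT replicate 1 and 3 with DESeq2. Ccnd1 was called by neither DESeq2 nor the fits without any 1 sample other than Txnip-KO replicate 1. Ccne1, the cyclin E needed for polyploidy, was at 8.47, 11.2 and 7.13 CPM in WT and 2.27, 3.60 and 2.58 in Txnip-KO (-1.62 ± 0.35, adjusted p = 0.00315). The replication licensing factor Cdt1 and its inhibitor Gmnn fell by 0.47 ± 0.14 and 0.69 ± 0.14 on the log2 scale (adjusted p = 0.0196 and 0.00184). Cdt1 did not pass without WT replicate 1, WT replicate 3 or Txnip-KO replicate 1 (adjusted p = 0.0576, 0.0850 and 0.0793), nor with the rule applied after thinning to 3000 UMIs (-0.25, adjusted p = 0.272).

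Cholesterol synthesis had the lowest median of the 16 pathway lists, -0.91, with 15 of 21 genes called lower (71.4%, against 10.4% of all genes) and 0 higher. Idi1, the isopentenyl isomerase, was found at 65.4, 59.3 and 53.4 CPM in WT and 17.4, 21.3 and 16.3 in Txnip-KO (-1.66 ± 0.15, adjusted p = 7.06e-07). Fdps, which makes farnesyl diphosphate, was measured at 65.1, 64.5 and 65.6 CPM in WT and 18.2, 21.3 and 28.3 in Txnip-KO (-1.60 ± 0.15, adjusted p = 7.17e-07). Cyp51 and Msmo1, which work on lanosterol and its products, fell by 1.63 ± 0.21 and 1.15 ± 0.20 on the log2 scale (adjusted p = 5.15e-05 and 6.03e-04). Among G1-called progenitors, 8 of the 9 genes that could be tested were called lower.

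Nuclear genes of oxidative phosphorylation were called lower in 41 of 58 tests (70.7%, against 10.4% of all genes) and higher in 0, with a list median of -0.37. Cytochrome c (Cycs) fell from 263 ± 10.2 to 166 ± 29.2 CPM (-0.67 ± 0.12, adjusted p = 6.78e-04). The count was 17 without WT replicate 2, 26 without WT replicate 1, 27 without WT replicate 3 and 19 among G1-called progenitors. Of 30 genes for ribosome production and MYC targets, 15 were lower and 0 higher, such as the nucleolar proteins Ncl (-0.50 ± 0.09) and Npm1 (-0.44 ± 0.09, adjusted p = 9.53e-04 and 0.00159). The ribosome and MYC count was 9 without WT replicate 1, 6 without WT replicate 2 and 8 without WT replicate 3. Over all genes, 638, 486 and 692 were called lower in those fits, against 1036 with all samples.

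In the list of MondoA and its targets without Txnip, 4 of 15 genes were called higher (26.7%, against 9.66% of all genes) and 2 lower (13.3%, against 10.4%). Arrdc4, an arrestin related to Txnip, was at 8.76, 8.07 and 12.1 CPM in WT and 38.2, 40.6 and 24.9 in Txnip-KO (1.92 ± 0.20, adjusted p = 4.30e-06). The Krüppel-like factors Klf10 and Klf11 rose by 1.67 ± 0.19 and 1.88 ± 0.30 on the log2 scale (adjusted p = 9.42e-06 and 2.88e-04). Hexokinase 2 (Hk2) fell from 14.9, 18.1 and 13.9 to 5.30, 4.91 and 4.29 CPM (-1.66 ± 0.26, adjusted p = 2.25e-04). In the list of 26 glucose uptake and glycolysis genes, 3 were called higher (11.5%, against 9.66%) and 8 lower (30.8%, against 10.4%). The latter count was 4 without Txnip-KO replicate 1, 5 without WT replicate 1 and 3 without WT replicate 2 or WT replicate 3. The transporter Slc2a3 rose from 21.3 ± 3.07 to 42.6 ± 5.91 CPM (adjusted p = 4.00e-04), and lactate dehydrogenase Ldha fell from 772 ± 39.6 to 589 ± 40.9 (adjusted p = 0.00760; 0.0594 without WT replicate 2).

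The promoter of Arrdc4 is shown because MondoA acts through E-box elements. The E-box CACGTG, which reads the same on both strands, was found in 6.02% of the 32851 RefSeq promoters (GRCm38.p6, 250 bases before the start). Among the largest rises it occurred in Arrdc4 and Polr3gl, 2 of the 8 genes found in the table. It also occurred in Hsph1, 1 of 11 genes of the largest falls, and in Treml1, 1 of 11 megakaryocyte markers. The exact letters CACGTG were not in the same window of Txnip (chr3:96557707-96557956). Elements that depart from these letters were not searched, so their presence or absence there was not tested. In Arrdc4 (chr7:68749239-68749488, minus strand) it begins at position -193 and is in capitals.
Arrdc4: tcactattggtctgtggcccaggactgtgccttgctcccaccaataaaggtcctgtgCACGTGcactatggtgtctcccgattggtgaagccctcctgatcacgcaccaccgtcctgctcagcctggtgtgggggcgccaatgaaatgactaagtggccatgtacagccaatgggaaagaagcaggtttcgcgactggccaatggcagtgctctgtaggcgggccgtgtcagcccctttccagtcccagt

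A list of FoxO factors, genes they switch on when insulin signalling is low and other insulin feedback genes held 5 of 20 called higher and 0 called lower, with a list median of 0.42. The factors Foxo1 and Foxo4 themselves were among the 5 (0.93 ± 0.30 and 1.12 ± 0.38, adjusted p = 0.0318 and 0.0422), and each lost its call in 8 alternatives. Tsc22d3, also a glucocorticoid target, was found at 41.5, 46.7 and 54.2 CPM in WT and 178, 153 and 131 in Txnip-KO (1.72 ± 0.13, adjusted p = 3.80e-08). Pik3ip1, an inhibitor of phosphoinositide 3-kinase, rose from 23.5 ± 3.88 to 62.0 ± 17.9 CPM and the insulin receptor Insr from 11.5 ± 1.72 to 30.5 ± 11.7 (adjusted p = 1.74e-05 and 4.48e-04). The count was 3 with DESeq2 and without Txnip-KO replicate 1, WT replicate 1 or WT replicate 2. Over all genes, 441, 506, 587 and 441 were called higher in those fits, against 958 in the main fit.

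**Figure D4:**
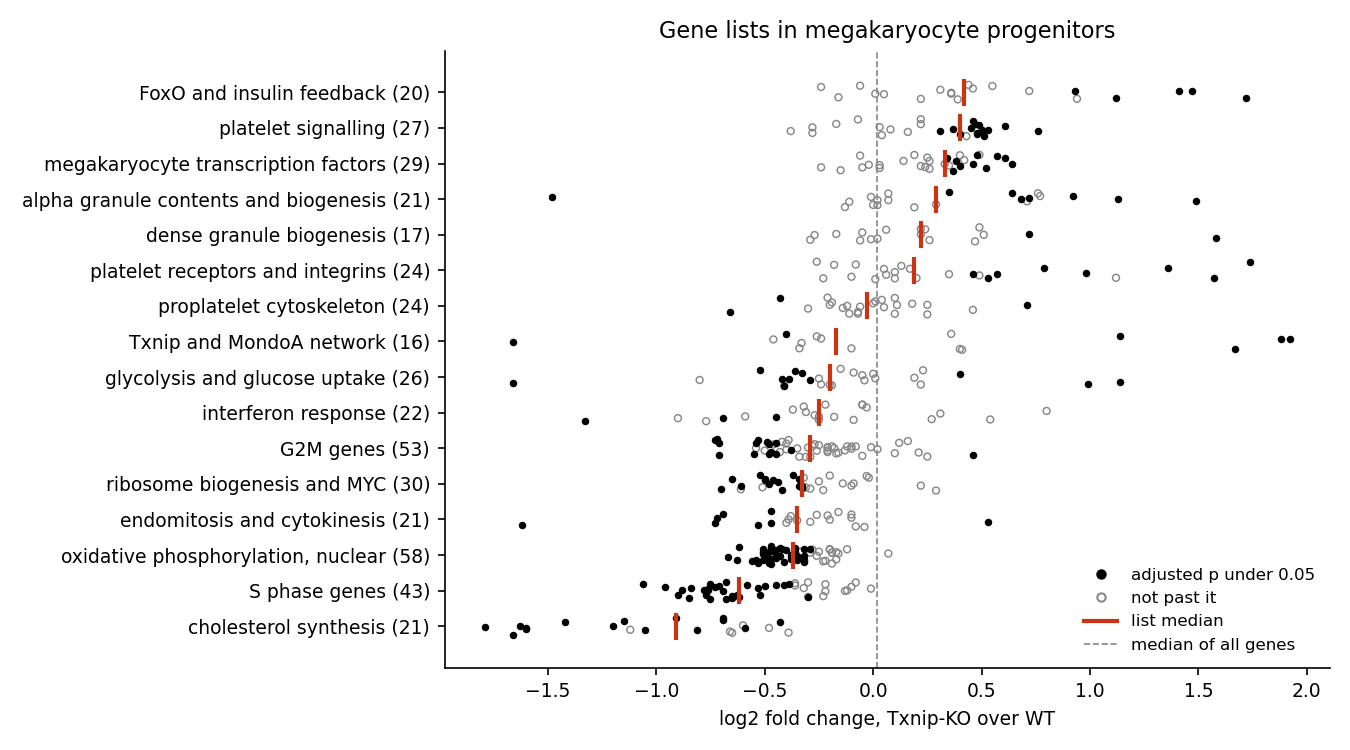
Log2 fold change (Txnip-KO over WT) of each tested gene of 16 lists in megakaryocyte progenitors, with the number tested in parentheses; filled points passed an adjusted p of 0.05, red bars are list medians and the dashed line is the median of all genes (0.02). Txnip (-5.92) is left out of the plot; the medians run from -0.91 for cholesterol synthesis to 0.42 for FoxO and insulin feedback.

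Among called genes of at least 20 CPM whose groups did not overlap, predicted genes left out, the largest rise was Tmem158, a transmembrane protein gene induced by RAS signalling, from 17.8, 21.9 and 14.3 to 122, 69.4 and 44.7 CPM (2.18 ± 0.24, adjusted p = 8.47e-06). The guanine nucleotide exchange factor Kalrn rose by 1.53 ± 0.21 on the log2 scale (adjusted p = 9.72e-05). Among the largest falls were endoplasmic reticulum stress genes, Sdf2l1 from 82.7, 114 and 91.2 to 14.8, 29.8 and 27.5 CPM (-2.02 ± 0.18, adjusted p = 7.06e-07) and Creld2 (-1.23 ± 0.21, adjusted p = 4.72e-04). Lars2, the mitochondrial leucyl-tRNA synthetase, fell by 1.87 ± 0.15, and Oxct1, which uses ketone bodies, by 1.35 ± 0.14 on the log2 scale (adjusted p = 1.41e-07 and 3.90e-06). Vim fell from 152, 170 and 208 to 87.0, 87.7 and 64.4 CPM (-1.11 ± 0.13, adjusted p = 1.43e-05). The histone genes H2ac6 (2.12 ± 0.30), Hist1h2ap (1.91 ± 0.32) and H1f5 (-1.23 ± 0.18) were also among the largest changes, but their near-identical copies may share reads, which makes them uncertain.

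Marker lists of other cell types were read in the same progenitors. The 8 platelet markers found summed to 702 to 742 CPM in WT and 1065 to 1233 in Txnip-KO samples, mostly through Nrgn (620 ± 9.42 and 1048 ± 82.8 CPM; 0.76 ± 0.09, adjusted p = 2.70e-05), with Tubb1 and Gp6 near 0. The 12 stem cell markers summed to 351 to 377 CPM in WT and 452 to 543 in Txnip-KO, and 4 of 8 tested were called higher and 0 lower, while the defining markers Procr and Fgd5 were near 0. Granulocyte-monocyte markers summed to 493 to 588 and 283 to 401 CPM, erythroid ones to 803 to 969 and 774 to 814, and natural killer or innate lymphoid ones to 334 to 432 and 387 to 450. Basophil or mast cell markers summed to 381 to 404 CPM in WT and 433 to 553 in Txnip-KO. Of 5 tested, 2 were called higher (Kit and Gata2) and 1 lower (Cpa3). Plasmacytoid dendritic markers summed to 247 to 267 and 258 to 428 CPM, with 2 of 7 higher and 1 lower. B-lineage markers summed to 31.9 to 68.0 and 29.0 to 113 CPM with Pax5 at 0, and Cd74, which antigen-presenting cells express, was called higher with overlapping groups, 7.30 ± 5.18 CPM in WT and 76.8, 34.7 and 0.859 in Txnip-KO (2.56 ± 0.53, adjusted p = 0.00258). T cell markers summed to 1.74 to 6.32 and 5.79 to 15.4 CPM, with Cd3e at 0. Neutrophil markers summed to 12.5 to 18.7 CPM in WT and 12.2 to 61.4 in Txnip-KO. The sums of the platelet, stem cell and basophil or mast cell lists were higher in every Txnip-KO sample than in every WT sample. Those of the granulocyte-monocyte list were lower. Among single genes, 18.5% were above and 18.7% below without overlap, and 9.66% were called higher and 10.4% lower. The list sums were not tested. The part of these marker lists in the changes of megakaryocyte genes was not tested either.

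Few genes were called to differ in their genotype effect from Hlf-positive stem cells of the same samples. A model with both sets of cells and the sample as a block (edgeR quasi-likelihood interaction, Benjamini-Hochberg adjusted) called 29 of 11008 genes (0.263%), 10 more positive in the progenitors (0.0908%) and 19 more negative (0.173%). Slc35d3 was at 24.7, 29.9 and 29.1 CPM in WT and 94.6, 73.8 and 73.4 in Txnip-KO progenitors. In stem cells it was measured at 14.6, 18.4 and 24.7 CPM in WT and 8.21, 16.2 and 14.1 in Txnip-KO, on the scale common to both sets (difference of the log2 effects 2.07 ± 0.27, adjusted p = 0.00201). Apoe was at 888, 973 and 1072 CPM in WT and 490, 708 and 966 in Txnip-KO progenitors, where it did not pass on its own (-0.41, adjusted p = 0.0682). In stem cells it rose from 207, 180 and 165 to 454, 492 and 408 CPM, and the difference was -1.80 ± 0.19 (adjusted p = 1.95e-04).

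The sphingolipid exporter gene Mfsd2b, already expressed in WT progenitors (81.9, 83.4 and 86.9 CPM), reached 125, 113 and 93.7 in Txnip-KO. In stem cells it went from 5.52, 5.79 and 3.19 to 39.9, 20.4 and 11.9 CPM (difference -1.92 ± 0.30, adjusted p = 0.00918). Gata2, a stem and progenitor factor, was at 226, 237 and 222 against 336, 260 and 244 CPM in progenitors and 69.1, 73.5 and 61.8 against 212, 146 and 80.8 in stem cells (difference -0.81 ± 0.16, adjusted p = 0.0376). Neither Itgb3 (0.35 ± 0.25, adjusted p = 0.729) nor Esam (0.69 ± 0.25, adjusted p = 0.373) had a different genotype effect that passed, so these rises cannot be called particular to megakaryocyte progenitors. Idi1 (0.04 ± 0.22, adjusted p = 0.987) and Polr3gl (-0.10 ± 0.15, adjusted p = 0.900) changed in both sets. The call count rested on single samples: it was 2 without WT replicate 3, 12 without WT replicate 1, 15 without WT replicate 2, 13 without Txnip-KO replicate 1 and 59 without Txnip-KO replicate 3. Without WT replicate 3, Slc35d3 had a difference of 1.89 (adjusted p = 0.0547) and Mfsd2b one of -1.68 (adjusted p = 0.133).

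Against erythroid progenitors the same model called 168 of 10925 genes (1.54%), 104 more positive (0.952%) and 64 more negative (0.586%). Serpina3g, a protease inhibitor gene, was at 109, 110 and 134 CPM in WT and 335, 215 and 286 in Txnip-KO megakaryocyte progenitors. In erythroid progenitors it was found at 17.8, 13.8 and 18.7 CPM in WT and 13.9, 18.2 and 11.8 in Txnip-KO (difference 1.38 ± 0.20, adjusted p = 8.20e-04). Trim47, a ubiquitin ligase gene, showed the same pattern (21.1, 18.9 and 21.3 against 58.6, 46.8 and 67.8 CPM in megakaryocyte progenitors; difference 1.12 ± 0.21, adjusted p = 0.00609). Lmo2 rose in megakaryocyte progenitors and was at 323, 298 and 320 against 254, 315 and 256 CPM in erythroid ones (difference 0.60 ± 0.08, adjusted p = 3.21e-04). Vim fell by more in the megakaryocyte progenitors (difference -0.70 ± 0.10, adjusted p = 8.20e-04).

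DNA synthesis genes fell in both lineages. Pclaf, the PCNA clamp-associated factor, was measured at 126, 102 and 113 against 39.7, 82.3 and 61.1 CPM in megakaryocyte progenitors and at 115, 115 and 109 against 35.0, 24.2 and 31.9 in erythroid ones, and fell less in the former (difference 1.05 ± 0.22, adjusted p = 0.0150). This difference did not pass without Txnip-KO replicate 2 (0.49, adjusted p = 0.265), nor without Txnip-KO replicate 3, WT replicate 2 or WT replicate 3 (adjusted p = 0.0688, 0.0651 and 0.0542). Of the S-phase list, 40 of 43 genes were called lower in erythroid progenitors, against 1676 of 10906 over all genes. Of the 43 differences 3 were called, all more positive in the megakaryocyte progenitors, against 104 of 10925 over all genes. The mast cell protease gene Cpa3 fell from 24.2, 19.7 and 26.8 to 5.19, 15.1 and 5.86 CPM in megakaryocyte progenitors and was at 54.6, 54.9 and 53.4 against 59.8, 74.4 and 53.9 in erythroid ones (difference -1.55 ± 0.23, adjusted p = 0.00103). The count of genes with a different effect was 66 without WT replicate 3 or Txnip-KO replicate 3, 76 without WT replicate 2 and 92 without WT replicate 1.

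**Figure D5:**
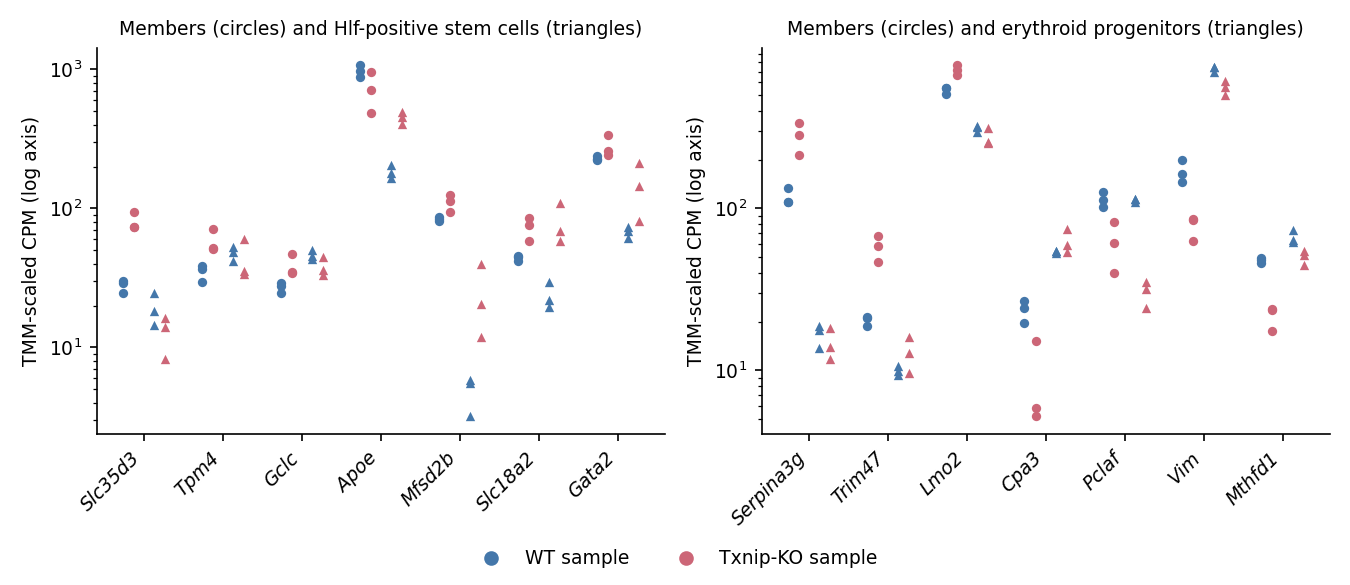
TMM-scaled CPM (logarithmic axes) of genes whose genotype effect differed between megakaryocyte progenitors (circles) and Hlf-positive stem cells (left, triangles) or erythroid progenitors (right, triangles); each point is 1 of 3 samples per genotype. Slc35d3 and Serpina3g are higher in Txnip-KO in the circles but not in the triangles.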

How the data were processed

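Flushed marrow was strained (70 µm), enriched and sorted by flow cytometry before droplet capture with the Chromium Single Cell 3′ version 3.1 kit, per the labels' protocols. The deposited files hold UMI counts per gene and barcode without normalization. The submitters' processing notes name Cell Ranger 6.1.1, CASAVA 1.8 and Seurat 2.3.4. The build used for counting was not given in the sources used here. Each table has 31253 features with Ensembl identifier and symbol, of which 31184 identifiers were found in GENCODE M21, which gave positions on GRCm38, among them all 135 named genes.

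Of 48277 barcodes, 44399 passed the cell filter. The members and gene lists were chosen with earlier results of these data known. UMIs of the members were summed per sample and tested with edgeR 4.0.16 (R 4.3.3; filterByExpr, TMM, glmQLFit and glmQLFTest; Benjamini-Hochberg over all tested genes), with 3 samples per group. SE is the log2 fold change divided by the root of the F statistic. Differences from other cells used the same test with sample as a block. Phases were called in scanpy 1.11.5 with 43 S-phase and 54 G2M genes, after thinning to 2000 UMIs, which left out 1 member. Doublets were the barcodes with the highest Scrublet scores of each sample. The share marked was 0.8% for every 1000 kept barcodes of the sample, which gave 2657 of the 44399 kept barcodes. These were removed only as an alternative. Intervals and limits for counts of 0 cover counting error only. On simulated counts with known changes the test of the 2 genotypes recovered 100 of 100 genes changed by 2 on the log2 scale and 99 of 100 changed by 1, and called 12 of 9590 unchanged genes. The interaction test recovered 100 and 84 of 100 and called 6 of 9330. Changed genes were drawn only from well-counted ones, so recovery of genes at low counts was not measured. The interaction run also gave all genes a single dispersion and no shared sample effect, so its rates may not hold for the real counts.

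Named genes are Txnip, the rule genes, the 12 largest called rises and falls of mean level 20 CPM or more and no overlap between groups (predicted genes left out), up to 6 genes of smallest p per list, all tested megakaryocyte and platelet markers, and 5 interaction genes per direction. Gata1, Gata2, Mki67, Ccnd1, Foxo1, Foxo4, Kit, Cd74 and the genes used to describe cell identity were named after their values were seen. Alternatives were DESeq2 1.42.0, other scaling and filters, other rules for members, thinning, and leaving out each sample.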

Additional observations from a re-analysis of the deposited data

Results flagged for a closer look

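Some genes had a genotype effect in megakaryocyte progenitors that differed from the effect in other cells of the same samples by an interaction test. Set against Hlf-positive stem cells (log2 effect in the progenitors minus that in the other cells), the values were 3.18 for Cd74, 2.07 for Slc35d3, 1.11 for Tnip3, 0.93 for Tpm4 and 0.82 for Gclc, and -1.92 for Mfsd2b, -1.80 for Apoe, -1.69 for Cpa3, -1.66 for Clec4d and -1.05 for Slc18a2. With 1 sample left out in turn, Gclc and Slc18a2 did not pass in 5 of 6 fits, Cd74, Tpm4 and Tnip3 in 4, Cpa3 and Clec4d in 3, and Slc35d3 and Mfsd2b in 1, while Apoe passed in all 6. Cd74 also did not pass with marked doublets removed (3.62, adjusted p = 0.170). Its rise rested on Txnip-KO replicates 1 and 2, at 79.7 and 35.7 CPM against 0.884 in replicate 3 and 1.85 to 12.7 in WT progenitors.

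Set against erythroid progenitors, the values were 1.44 for H2ac6, 1.38 for Serpina3g, 1.13 for H2ac4, 1.12 for Trim47 and 1.05 for Pclaf. They were -4.23 for Hba-a1, -4.12 for Igha, -3.76 for Hbb-bs, -2.66 for Hbb-bt and -1.55 for Cpa3. In erythroid progenitors Hba-a1 was at 83.3, 8.12 and 137 CPM in Txnip-KO samples and Igha at 0.174, 161 and 146. In megakaryocyte progenitors Hbb-bs was at 3.93, 5.28 and 53.2 CPM in WT and 21.9, 0.961 and 2.51 in Txnip-KO. In erythroid progenitors it was at 4.65, 7.35 and 7.37 and at 45.8, 3.94 and 146. Without WT replicate 3 its difference was -1.90 (adjusted p = 0.364). Without that sample Hba-a1, Igha and Hbb-bt did not pass either (adjusted p = 0.116, 0.130 and 0.319). With 1 sample left out in turn, Pclaf did not pass in 4 of 6 fits, H2ac6 and Hbb-bt in 3, H2ac4, Hbb-bs and Igha in 2 and Hba-a1 in 1, while Serpina3g, Trim47 and Cpa3 passed in all 6.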

How the results depend on the processing

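The number of genes called in megakaryocyte progenitors (1994) was 1179 with DESeq2's Wald test, 487 in members called G1 (5591 genes tested), 338 after thinning members to 2000 UMIs (4551 tested) and 927 to 2024 with 1 sample left out. The share of members turned from -0.470 to 0.374 percentage points with the rule applied after thinning to 3000 UMIs, and ranged from -0.721 to -0.0596 with 1 sample left out. The depth difference ranged from -5079 to -2961 UMIs and that in S or G2M from -25.0 to -17.6 percentage points. Against Hlf-positive stem cells the 29 calls became 97 without marked doublets, 249 without the filter on low counts and 2 to 59 with 1 sample left out; against erythroid progenitors the 168 became 266, 363 and 66 to 210.

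Of 96 called genes named by rule, 0 changed direction in any of 18 alternatives. Passing was lost by 33 of 73 after thinning to 2000 UMIs, by 20 of 74 in G1-called members, and by 0 to 12 elsewhere. Deviations of same-numbered samples correlated at r -0.15, -0.08 and 0.08, and those of WT and Txnip-KO samples with unlike numbers at -0.26 to 0.32. With 3 samples per group these values cannot decide whether the numbers pair samples. With the replicate block 1908 genes were called. The shares and depths had p = 0.250 with it, the smallest that 3 pairs allow in an exact sign-flip test.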
